A study of Mus musculus with 1505 samples.

Results

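Neuropeptide receptors were followed in motor cortical neurons through 10 genes, Sstr1, Sstr2, Sstr3, Sstr4, Npy1r, Npy2r, Vipr1, Vipr2, Hcrtr2 and Rxfp3, out of 42381 genes counted at 25 °C. The 10 genes were chosen by their measured levels, since earlier results of these cells had shown them unevenly spread over cell families. Their levels across families and t-types (transcriptomic types) at 25 °C are therefore a description and carry no test. Each neuron of the primary motor cortex was recorded in an acute slice by whole-cell patch clamp, its content was drawn into the pipette, and its RNA was sequenced as one full-length cDNA library (Patch-seq). A set of 177 cells with a type label was recorded at 34 °C on 8 days in the presence of the synaptic blockers kynurenic acid and picrotoxin, and held 110 Sst, 43 IT, 12 ET, 10 Pvalb and 2 NP cells. These came from adult Sst-Cre/Ai9 and Pvalb-Cre/Ai9 mice, and layer 5 Sst and excitatory neurons were targeted. The larger set of 1228 cells with a type label was recorded at 25 °C on 238 days in adult male and female mice. These were wild-type C57Bl/6 or carried the Ai9 reporter with a Cre driver (Viaat, Sst, Vip, Pvalb, Npy, Vipr2, Slc17a8 or Gnb4).

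The 25 °C set held 5 inhibitory families with 815 cells (286 Pvalb, 272 Sst, 152 Vip, 92 Lamp5 and 13 Sncg) and 5 excitatory families with 413 cells. The excitatory families were 253 intratelencephalic (IT), 48 extratelencephalic (ET, called PT in the labels), 83 corticothalamic (CT), 24 layer 6b (L6b) and 5 near-projecting (NP) cells, so NP sat at the minimum of 5 cells set for a family. A Cre driver marks the cells to be patched by the gene that drives it and leaves others to be found without a label, so the numbers of cells in a family reflect targeting and not abundance. This holds also for Vipr2-Cre and Npy-Cre, whose drivers are a member and the ligand of 2 members. Family and t-type were assigned in the study from the same RNA. The labels name no animal, so every family or t-type was treated as 1 sample made of many cells. Levels are exonic reads summed over the cells of a group and divided by the group's total, as CPM (reads per 1000000 reads of the group). Intervals in parentheses are exact 95% intervals, Poisson for a summed level and binomial for a share of cells. Both cover counting error only, because reads made by PCR without molecular identifiers are not independent molecules and cells of a group are not replicates.

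Depth, the exonic total of a cell, lay between 1467 and 3463207 counts at 34 °C (median 1203122) and between 2588 and 18172944 counts at 25 °C (median 1267852). For shares of cells with a read, each cell was thinned to 200000 counts, which left 154 cells at 34 °C and 1157 cells at 25 °C. The labels of the 2 cell classes held in their defining markers. The sum of Gad1, Gad2 and Slc32a1 was 2200 to 6802 CPM in the inhibitory families and 0.550 to 30.8 CPM in the excitatory ones, and that of Slc17a7, Slc17a6 and Neurod6 was 4.93 to 13.96 CPM in the inhibitory families and 373 to 1090 CPM in the excitatory ones. The sum of 8 microglial genes, RNA of another cell type that can enter a pipette, was 280 to 964 CPM per family. Astrocyte genes summed to 178 to 283 CPM in inhibitory and 421 to 991 CPM in excitatory families, and oligodendrocyte genes to 230 to 720 CPM in inhibitory and 741 to 2034 CPM in excitatory families.

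Neuropeptides are released from dense-core vesicles, often from interneurons, and act over some distance on G-protein-coupled receptors. Somatostatin and neuropeptide Y receptors couple mainly to inhibitory Gi and Go proteins, which close calcium channels and open Kir3 potassium channels. VIP receptors couple mainly to Gs and raise cyclic AMP, orexin receptors excite mainly through Gq, and the relaxin-3 receptor Rxfp3 couples to Gi. In cortex the peptides somatostatin, neuropeptide Y and VIP are made by interneurons, whereas orexin comes from the hypothalamus and relaxin-3 mainly from the brain stem.

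Promoter sequence is shown for 4 members whose family patterns are described further on, Sstr2, Npy1r, Npy2r and Rxfp3. RefSeq (GRCm38.p6) gave an entry for 9 of the 10 members, and the 250 bases before each transcription start are printed 5′ to 3′ on the gene's strand. Capitals mark matches, on either strand, to 5 motifs: the cyclic AMP response element TGACGTCA, the GC box GGGCGG, the CCAAT box CCAAT, the E-box CACGTG and the TATA box TATAAA. On the other strand a GC box reads CCGCCC and a CCAAT box reads ATTGG.
Sstr2, chr11:113619077-113619326, plus strand: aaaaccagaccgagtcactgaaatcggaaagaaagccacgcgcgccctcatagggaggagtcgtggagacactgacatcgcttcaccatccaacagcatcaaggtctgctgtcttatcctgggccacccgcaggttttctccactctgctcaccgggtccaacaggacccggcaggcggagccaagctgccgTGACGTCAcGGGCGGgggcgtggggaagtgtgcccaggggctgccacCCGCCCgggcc
Npy1r, chr8:66697172-66697421, plus strand: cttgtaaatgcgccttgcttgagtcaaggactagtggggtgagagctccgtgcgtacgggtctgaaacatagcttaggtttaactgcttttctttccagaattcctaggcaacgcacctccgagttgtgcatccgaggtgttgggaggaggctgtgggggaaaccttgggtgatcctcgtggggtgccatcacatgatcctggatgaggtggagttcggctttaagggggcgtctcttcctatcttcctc
Npy2r, chr3:82548086-82548335, minus strand: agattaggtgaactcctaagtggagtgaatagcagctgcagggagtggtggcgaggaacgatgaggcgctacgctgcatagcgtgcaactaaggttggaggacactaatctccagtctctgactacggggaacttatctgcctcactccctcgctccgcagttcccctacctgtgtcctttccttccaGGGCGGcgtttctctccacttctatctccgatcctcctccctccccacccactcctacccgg
Rxfp3, chr15:11037969-11038218, minus strand: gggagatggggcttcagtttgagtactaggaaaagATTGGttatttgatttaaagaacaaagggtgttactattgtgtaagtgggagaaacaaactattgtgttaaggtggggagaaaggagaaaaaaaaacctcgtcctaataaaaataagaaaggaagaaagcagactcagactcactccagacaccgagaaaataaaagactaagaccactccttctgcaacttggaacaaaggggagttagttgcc
The Sstr2 sequence was the one member entry with the cyclic AMP response element, 58 to 51 bases before the start, a match held by 1.55% of 32851 promoters of this length. It also held 2 GC boxes, and the Npy2r sequence held 1, a motif found in 32.7% of all promoters. The Rxfp3 sequence held a CCAAT box on the other strand, 215 to 211 bases before the start, as did 33.8% of promoters on either strand. No match to the 5 motifs lay in the Npy1r sequence, and none of the 10 member entries held TATAAA, which 12.4% of promoters held. The GC content of the printed sequences was 39.6% for Rxfp3, 53.6% for Npy1r, 56.8% for Npy2r and 63.6% for Sstr2, against a median of 52.4% over all promoters. A match is a description of letters and not a binding site.

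The 4 somatostatin receptor genes divided over the families. Sstr1 was highest in the Sst cells that also make the peptide, Sstr2 and Sstr3 were highest in excitatory cells, and Sstr4 was found in ET cells more often than in any other family. The heat map of family levels shows these blocks.

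**Figure D1:**
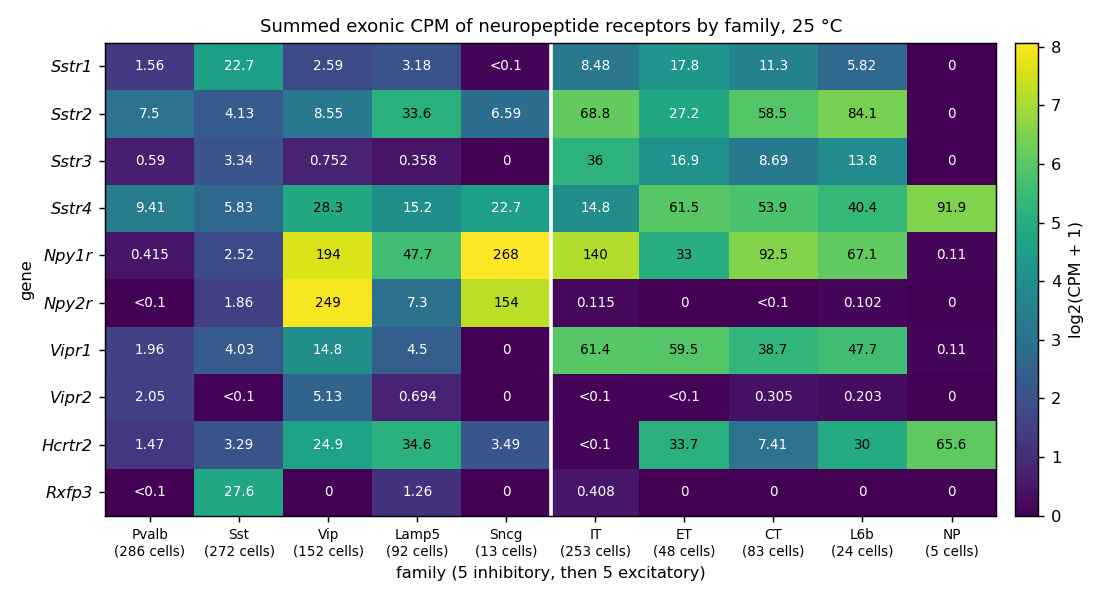
Summed exonic CPM of the 10 receptor genes (rows) in the 10 families at 25 °C (columns, inhibitory families left of the white line), with colour as log2(CPM + 1) and the CPM printed in each cell. Npy1r and Npy2r reached 194 and 249 CPM in Vip cells, Rxfp3 stood at 27.6 CPM in Sst cells and at most 1.26 CPM elsewhere, and the Pvalb column stayed at or under 9.41 CPM.

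Sstr1 encodes a somatostatin receptor known as an autoreceptor in other brain regions. It stood at 22.7 CPM (22.2 to 23.1) in Sst cells, at 3.18 in Lamp5, 2.59 in Vip, 1.56 in Pvalb and 0.0969 CPM (2 reads) in Sncg cells. In the excitatory families it was at 17.8 CPM (17.1 to 18.6) in ET, 11.3 in CT, 8.48 in IT and 5.82 in L6b cells, with no read in NP. The 2 highest families were close, and thinned cells did not separate them, since a read was found in 36.3% of Sst cells (30.2 to 42.8, 86 of 237) and in 38.6% of ET cells (24.4 to 54.5, 17 of 44). Reads came from 101 of 272 Sst cells on 54 of 84 days, and no Sst cell held more than 5.64% of them.

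Within the Sst family the Sstr1 level varied from 0 to 82.3 CPM over 15 t-types. It was at 82.3 CPM in Sst Th_1, where 4 of 7 cells had a read, at 61.8 CPM in Sst Myh8_1 (11 of 16 cells) and at 39.1 CPM in Sst Crhr2_2 (10 of 12 cells). The 61 cells of Sst Calb2 stood at 19.3 CPM with a read in 25 cells, and Sst Htr1a had none. High Sstr1 was thus seen in some Sst t-types and not in others. Outside the Sst family, Pvalb Gabrg1 stood at 37.8 CPM from 2 of 7 cells (15.2 CPM without the higher one) and L5 PT_1 at 18.8 CPM from 15 of 31 cells, whereas the 22 cells of L4/5 IT_1 stood at 0.532 CPM.

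Sstr2 encodes the receptor through which somatostatin hyperpolarises many cortical neurons. Its levels were 84.1 CPM (81.2 to 86.99) in L6b, 68.8 in IT, 58.5 in CT and 27.2 CPM in ET cells, with no read in NP. Among inhibitory families Lamp5 stood at 33.6 CPM, above ET. The others were at 8.55 CPM in Vip, 7.495 in Pvalb, 6.59 in Sncg and 4.13 in Sst cells, and 1 cell held 99.3% of the Sncg reads. The first place of L6b rested on 9 of 24 cells, and without the cell with most reads it was 66.1 CPM, below IT. A read was found in 38.6% of thinned ET cells, 37.5% of L6b, 29.2% of IT and 28.05% of CT cells, against 21.1% of Lamp5 and 3.80% of Sst cells.

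Sstr2 differed between the 8 IT t-types, of which 2 had no read. Not all of them are named here, so no order by depth of layer is read from their levels. L6 IT_2, L6 IT_1 and L5 IT_1 stood at 174, 116 and 110 CPM, with reads in 15 of 25, 7 of 10 and 36 of 61 cells. L4/5 IT_2 was lower at 34.9 CPM. No read was counted in the 86 cells of L2/3 IT_3, which were recorded on 53 days, where 3 reads would be 0.0294 CPM. Cells of L2/3 IT_3 thus carried no detectable Sstr2 exonic RNA at this depth, while the same cells carried Npy1r at 213 CPM. In Lamp5 cells Sstr2 was highest in Lamp5 Egln3_2, at 107 CPM in 3 of 9 cells, and Lamp5 Pdlim5_2 stood at 45.7 CPM in 8 of 24 cells. Among 9 Pvalb t-types 4 had a read, and the highest of them stood at 146 CPM.

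Sstr3 encodes a somatostatin receptor known for its place on neuronal primary cilia. It stood at 35.98 CPM (35.4 to 36.6) in IT cells, with reads in 78 of 253 cells, at 16.9 in ET, 13.8 in L6b and 8.69 CPM in CT cells, and no read was seen in NP. Inhibitory families ranged from 0 in Sncg to 3.34 CPM in Sst cells. Its ET level rested on 1 cell with 57.3% of the reads and was 7.79 CPM without it, and L6b was 6.92 CPM without its highest cell. L5 IT_3 reached 175 CPM, but 84.5% of that came from 1 cell. Of the t-types with many cells behind the value, L5 IT_1 stood at 47.7 CPM with a read in 32 of 61 cells, and L6 IT_2 at 40.6 CPM.

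Sstr4 encodes a somatostatin receptor on 1 exon, at chr2:148395344-148396767 on the plus strand (GENCODE M21, GRCm38). It was at 61.5 CPM (60.1 to 62.9) in ET cells, 53.9 in CT, 40.4 in L6b and 14.8 in IT cells. The NP value of 91.9 CPM came from 2 of 5 cells and was 26.5 CPM without the higher of them. Among inhibitory families it was at 28.3 CPM in Vip, 22.7 in Sncg, 15.2 in Lamp5, 9.41 in Pvalb and 5.83 CPM in Sst cells. Detection set ET apart more than the level did, since 79.5% of thinned ET cells had a read (64.7 to 90.2, 35 of 44) against 40.2% of CT, 30.2% of Vip, 27.9% of IT and 10.1% of Sst cells. Within the Vip family, Vip Mybpc1_2 stood at 73.9 CPM with a read in 21 of 33 cells. Within ET, L5 PT_1 was at 55.4 CPM (25 of 31 cells), and 73.4% of the reads behind the 67.2 CPM of L5 PT_4 came from 1 cell. The highest t-type, Sst Pvalb Etv1 at 105 CPM, rested on 3 of 8 cells and stood at 25.8 CPM without the highest of them. In Sncg the level was 8.95 CPM without the cell with most reads.

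**Figure D2:**
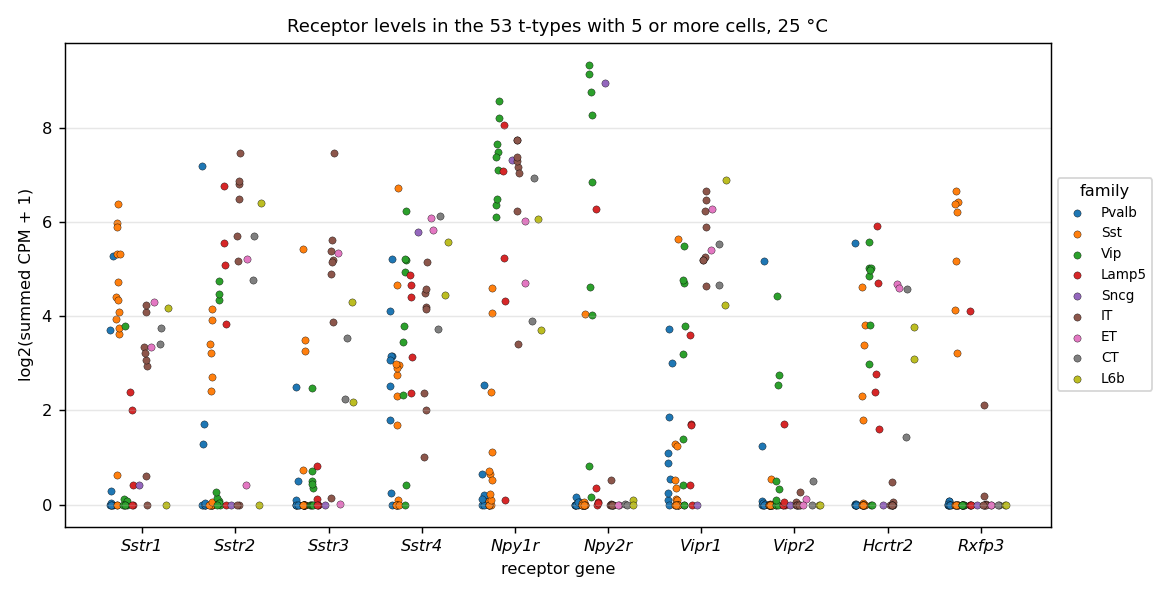
Level of each receptor gene as log2(summed CPM + 1) in 53 t-types with 5 or more cells at 25 °C, 1 point per t-type, coloured by family. Npy1r reached 50 CPM in 22 t-types and Rxfp3 in 4, while Vipr2 stayed without a read in 34.

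The 2 neuropeptide Y receptor genes shared one family, Vip, and differed in another, IT. Npy1r, whose product is the main postsynaptic receptor of the peptide, was at 268 CPM (261 to 275) in Sncg, 194 (192 to 195) in Vip, 47.7 in Lamp5, 2.52 in Sst and 0.415 CPM in Pvalb cells. In excitatory families it stood at 140 CPM (139 to 141) in IT, 92.5 in CT, 67.1 in L6b, 33.02 in ET and 0.110 CPM (1 read) in NP cells. It was the most widely detected member, with a read in 92.3% of thinned Sncg cells (63.97 to 99.8), 72.5% of IT (66.4 to 78.05) and 69.8% of Vip cells (61.8 to 77.04), against 5.49% of Sst and 2.198% of Pvalb cells. Sncg rested on 13 cells of which 12 had a read. Without the cell with most reads Lamp5 stood at 31.6 CPM and L6b at 42.5 CPM. The median cell held 224 CPM in Sncg, 103 in IT and 55.3 CPM in Vip cells. In IT, reads came from 99 of 117 recording days.

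Over t-types, Npy1r was highest in Vip Gpc3, at 378 CPM with a read in 25 of 26 cells. Vip Chat_1 followed at 293 CPM (13 of 16 cells), and Lamp5 Egln3_1 stood at 264 CPM with 66.8% of its reads in 1 of 9 cells. L6 IT_1 at 214 CPM (9 of 10 cells) and L2/3 IT_3 at 213 CPM (73 of 86 cells) were the highest excitatory types. The Lamp5 family was split, since the 37 cells of Lamp5 Slc35d3, a neurogliaform type, stood at 0.0778 CPM with a read in 1 cell. All 8 IT and all 9 Vip t-types held Npy1r, from 9.66 to 214 CPM in IT and from 67.8 to 378 CPM in Vip.

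Npy2r encodes the receptor best known as a presynaptic brake on peptide and transmitter release. It was confined, at levels over 7.30 CPM, to Vip and Sncg among the families: 249 CPM (247 to 251) in Vip cells with a read in 62 of 152, and 154 CPM (149 to 160) in Sncg cells with a read in 7 of 13. Lamp5 stood at 7.30, Sst at 1.86 and Pvalb at 0.0341 CPM, and 1 cell held 99.1% of the Lamp5 and 99.5% of the Sst reads. Excitatory families ranged from 0 in ET and NP to 0.115 CPM in IT cells. The share of thinned cells with a read was 53.8% in Sncg and 38.9% in Vip (31.1 to 47.2), against 1.11% in Lamp5 and 1.25% in IT.

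The Vip family was itself uneven for Npy2r. Vip Gpc3 stood at 645 CPM (21 of 26 cells), Vip Chat_1 at 562 (12 of 16), Vip C1ql1 at 432 (5 of 8) and Vip Mybpc1_3 at 115 CPM (8 of 17). The 33 cells of Vip Mybpc1_2, the type with most Sstr4 in this family, held 0.128 CPM from 2 cells. Vip Sncg reached 305 CPM with 69.1% of its reads in 1 cell. All 5 cells of Sncg Npy2r, a type named after this gene and assigned from the same RNA, had a read, at 492 CPM. In thinned Vip cells, 52 of the 58 with Npy2r also had Npy1r (89.7%), which was 50% of the 104 with Npy1r. In Sncg, all 7 cells with Npy2r had Npy1r.

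Of the VIP receptor genes, Vipr1 was higher in excitatory families other than NP and Vipr2 was low in every family. Vipr1, whose product binds VIP and PACAP, stood at 61.4 CPM (60.6 to 62.2) in IT, 59.5 (58.2 to 60.9) in ET, 47.7 in L6b, 38.7 in CT and 0.110 CPM (1 read) in NP cells. Inhibitory levels were 14.8 CPM in Vip, 4.50 in Lamp5, 4.03 in Sst, 1.96 in Pvalb and none in Sncg cells, and 1 cell held 90.6% of the Sst reads. Without the cell with most reads L6b stood at 22.98 CPM, below CT. The counting intervals of ET and IT overlapped, but 1 cell held 33.2% of the ET reads, and without it ET stood at 41.7 CPM. A read was found in 79.5% of thinned ET cells against 58.8% of IT (52.2 to 65.04), 30.5% of CT, 16.8% of Vip and 2.95% of Sst cells. The highest t-type was L6b Col6a1, at 118 CPM in 4 of 10 cells and 49.9 CPM without the highest of them. L6 IT_1 stood at 99.6 CPM (7 of 10 cells), L5 IT_1 at 87.7 (45 of 61) and L4/5 IT_1 at 74.1 CPM. L5 PT_1 had a read in 29 of 31 cells. In the Vip family, Vip Mybpc1_2 carried Vipr1 at 43.7 CPM in 12 of 33 cells.

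Vipr2 encodes the second receptor of the same 2 peptides. It stood at 5.13 CPM in Vip, 2.05 in Pvalb, 0.694 in Lamp5, 0.0588 in Sst and 0 CPM in Sncg cells, and at 0 to 0.305 CPM in excitatory families. The Vip value came from 10 of 152 cells, 51.3% of it from 1 cell, and was 2.55 CPM without that cell. A read was found in 4.40% of thinned Pvalb and 3.36% of Vip cells, against 1.25% of IT and 0.422% of Sst cells. Of 53 t-types, 2 reached 10 CPM, Pvalb Vipr2_2 at 35.1 CPM (9 of 17 cells) and Vip Gpc3 at 20.7 CPM (2 of 26 cells). Pvalb Vipr2_2 is named after this gene, and its cells were assigned from the same RNA. Microglial genes summed to 3178 CPM in Pvalb Vipr2_2, and their part in its Vipr2 level was not tested.

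Hcrtr2, the second orexin receptor, was found in inhibitory and in excitatory families, and nearly absent from IT cells. It was at 34.6 CPM (33.7 to 35.6) in Lamp5, 24.9 in Vip, 3.49 in Sncg, 3.29 in Sst and 1.47 CPM in Pvalb cells. Excitatory families held 33.7 CPM (32.7 to 34.8) in ET, 30.03 in L6b, 7.41 in CT and 0.0737 in IT cells, and NP showed 65.6 CPM from 2 of 5 cells, or 8.92 CPM without the higher one. In L6b 79.8% and in Pvalb 99.7% of the reads came from 1 cell. A read was found in 31.8% of thinned ET, 20.8% of Vip and 18.9% of Lamp5 cells, against 0.833% of IT and 0.366% of Pvalb cells. Lamp5 Slc35d3, the type with a Npy1r read in 1 cell, had the highest Hcrtr2 of all t-types at 59.2 CPM (13 of 37 cells). No IT t-type exceeded 0.389 CPM.

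Rxfp3, the receptor of the peptide relaxin-3, was the member most concentrated in 1 family. It stood at 27.6 CPM (27.2 to 28.1) in Sst cells, 1.26 in Lamp5 (1 cell), 0.0106 in Pvalb and 0 in Vip and Sncg cells, where 3 reads would be 0.0152 CPM in Vip. In excitatory families it was at 0.408 CPM in IT (3 cells) and at 0 in ET, CT, L6b and NP, with 3 reads at 0.0218 to 0.330 CPM. Reads came from 47 of 272 Sst cells on 34 of 84 days, and the cell with most held 8.99% of them. After thinning, 17.7% of Sst cells had a read (13.1 to 23.2, 42 of 237) against 1.11% of Lamp5 and 0.733% of Pvalb cells.

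Most Sst cells lacked a read of Rxfp3, and the t-types differed. It was at 99.4 CPM in Sst Chodl, the long-range projecting type (5 of 12 cells), 84.1 in Sst Myh8_1 (4 of 16) and 82.2 in Sst Pvalb Calb2 (15 of 26). Sst Calb2 stood at 34.8 (13 of 61), Sst Etv1 at 16.5 (2 of 11) and Sst Hpse at 8.29 CPM (4 of 50), and the other t-type with reads, Sst Pvalb Etv1, at 73.4 CPM (2 of 8). The remaining 8 of 15 Sst t-types had no read. Without the cell with most reads the levels were 54.2 CPM in Sst Chodl, 36.5 in Sst Myh8_1, 28.1 in Sst Pvalb Etv1 and 2.83 CPM in Sst Hpse. Depth was similar in Sst cells with and without a read, at medians of 1296859 and 1311160 counts, and microglial genes summed to medians of 295 and 265 CPM in them. Among thinned Sst cells, 25 of 42 with Rxfp3 also had Sstr1 (59.5%), and 86 of 237 had Sstr1 in all.

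**Figure D3:**
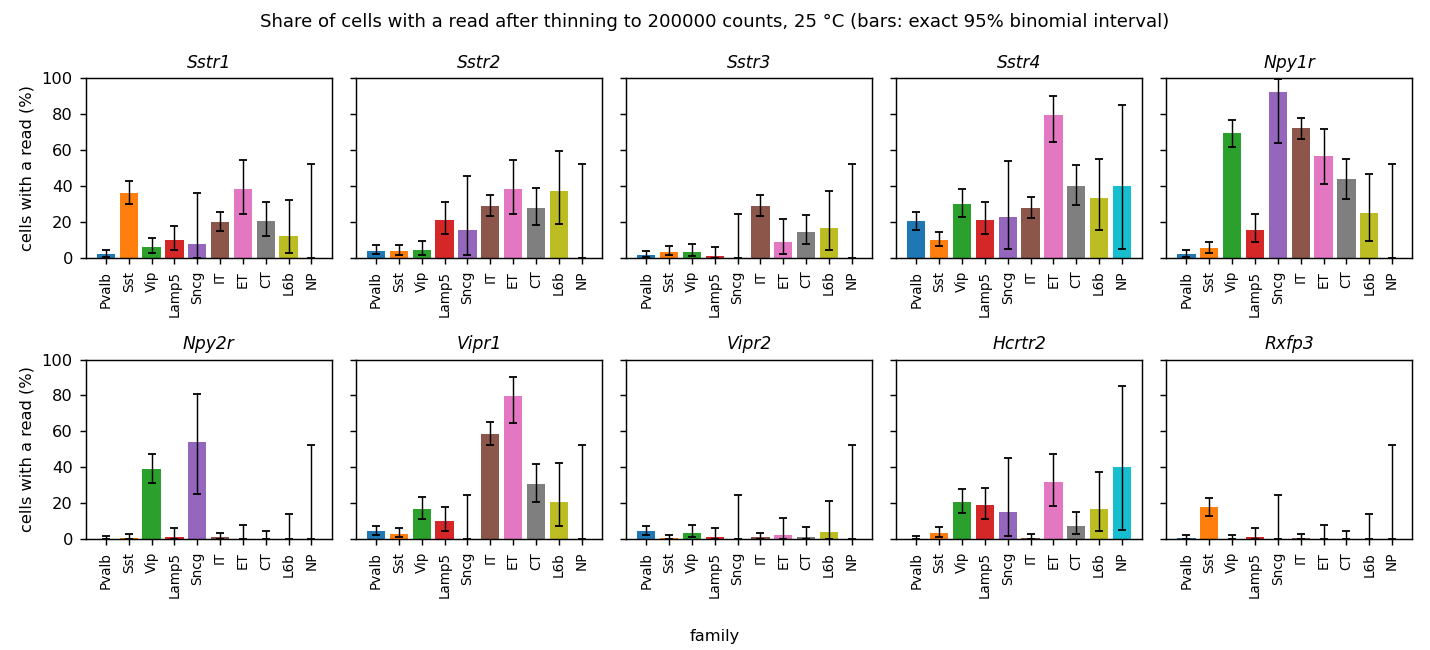
Percentage of cells with at least 1 exonic read of each receptor gene after thinning to 200000 counts per cell, by family at 25 °C, with bars for the exact 95% binomial interval. Npy1r was seen in 72.5% of IT and 69.8% of Vip cells, Sstr4 and Vipr1 each in 79.5% of ET cells, and Rxfp3 in 17.7% of Sst cells.

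Levels of different genes were compared per kilobase of exon, since longer transcripts give more reads. On that scale the leading member was Npy2r in Vip, at 73.7 CPM per kb ahead of Npy1r at 56.04, and Npy1r in Sncg, at 77.5 ahead of Npy2r at 45.6 CPM per kb. In IT it was Npy1r at 40.4, ahead of Sstr2 at 32.1 and Vipr1 at 10.6 CPM per kb. Sstr4 led in ET at 43.2 and in CT at 37.9 CPM per kb, and Sstr2 led in L6b at 39.2 CPM per kb. Sstr2 also led in Lamp5 at 15.7 CPM per kb, just ahead of Npy1r at 13.8. Sst cells were led by Sstr1 at 11.1 ahead of Rxfp3 at 6.47, and Pvalb cells by Sstr4 at 6.61 CPM per kb. Summed over the 10 genes, the level was 163 CPM per kb in Vip, 143 in Sncg and 50.8 in Lamp5, against 26.9 in Sst and 12.2 in Pvalb cells, and 75.2 to 107 CPM per kb in the excitatory families.

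The number of members seen in 1 cell followed the same order only in part. The mean was 3.36 of 10 in thinned ET cells, 2.42 in IT, 2.08 in Sncg and 1.94 in Vip, against 0.410 in Pvalb cells. No member was seen in 66.7% of Pvalb and 43.5% of Sst cells, against 10% of IT and 4.55% of ET cells. The most seen in any cell was 6, in IT, ET and CT cells. In IT, 35 cells held both Sstr2 and Sstr3, which was 50% of the 70 cells with each. In ET, 15 of 17 cells with Sstr2 also held Sstr4 (88.2%), which 35 of 44 ET cells held in all.

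The ligands were made mostly by inhibitory families, and for 2 members by none of these cells. Sst reached 2189 CPM in Sst cells and 8.56 CPM in the next family, and its relative Cort 51.8 CPM in Sst cells. Npy was at 5996 CPM in Lamp5, 1875 in Sst, 1356 in Sncg, 367 in Vip and 203 in Pvalb cells, and at most 7.44 CPM in excitatory families, with Sncg at 794 CPM without its highest cell. Of 86 thinned Sst cells with Sstr1, 85 also had Sst reads, as did 233 of all 237 thinned Sst cells. In IT 19 of 174 cells with Npy1r had Npy, against 27 of 240 in all. In Vip cells 42 of 104 with Npy1r and 18 of 58 with Npy2r had Npy, against 61 of 149 in all. In Sncg 11 of 12 with Npy1r did, against 12 of 13 in all. In these families the shares for Sstr1 and Npy1r lay near those of the whole family and show no pairing or separation of receptor and ligand by cell. Nearly all Sst and Sncg cells had the ligand, so their shares could hardly show either. Lamp5 cells differed, since 8 of 14 with Npy1r had Npy, against 78 of 90 in all, on few cells. Vip stood at 10042 CPM in Vip and 1997 CPM in Sncg cells, and Adcyap1, which encodes PACAP, at 371 CPM in ET and 94.5 in IT cells. Hcrt, the orexin gene, was at most 0.388 CPM in any family, and Rln3, the relaxin-3 gene, had 1 read in IT cells.

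**Figure D4:**
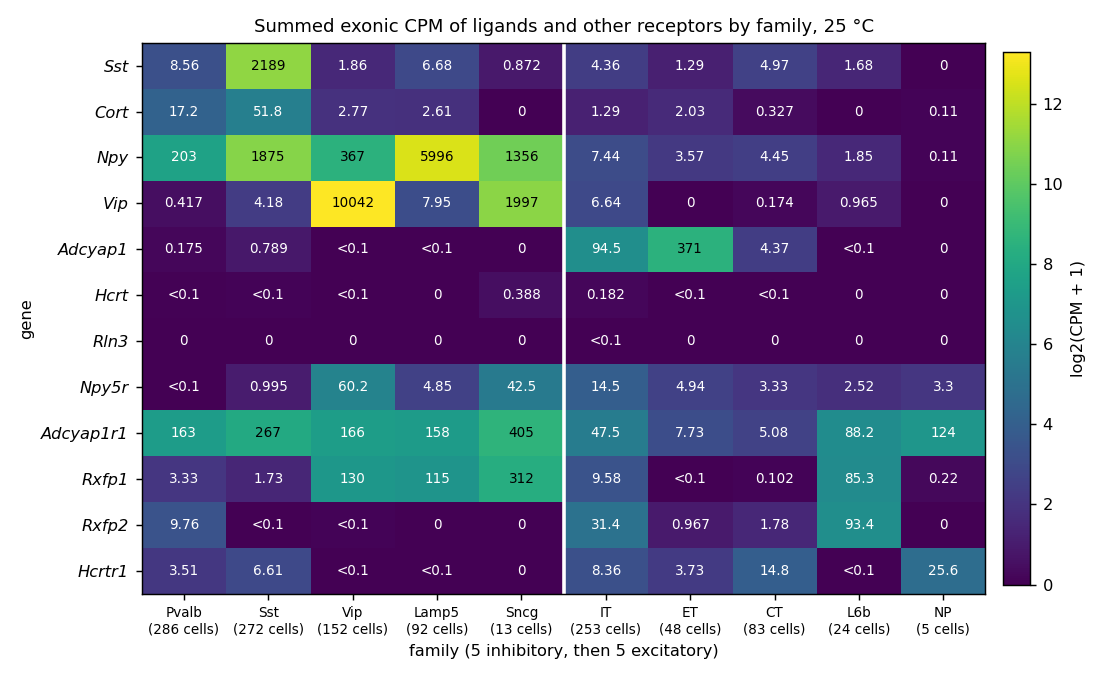
Summed exonic CPM of 7 ligand genes and 5 other receptor genes of the same ligand groups (rows) in the 10 families at 25 °C (columns, inhibitory families left of the white line), with colour as log2(CPM + 1). Ligand levels were highest in Sst, Lamp5, Vip and ET cells, and Hcrt and Rln3 stayed at or under 0.388 CPM.

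Other receptors of the same ligands had patterns of their own. Npy5r, a further neuropeptide Y receptor, was at 60.2 CPM in Vip, 42.5 in Sncg and 14.5 in IT cells, and 29 of the 38 thinned Vip cells with it also had Npy1r (76.3%). Adcyap1r1, the receptor selective for PACAP, was highest in inhibitory families, unlike Vipr1. It stood at 405 CPM in Sncg, 267 in Sst, 166 in Vip, 163 in Pvalb and 158 in Lamp5 cells, against 124 in NP, 88.2 in L6b, 47.5 in IT, 7.73 in ET and 5.08 CPM in CT cells. Its NP value came from 1 of 5 cells, and without the cell with most reads ET stood at 1.10 CPM. Rxfp1, the relaxin receptor, was at 312 CPM in Sncg and 130 in Vip cells. Without the cell with most reads, Sncg stood at 157 CPM of Rxfp1 and 17.8 CPM of Npy5r. Hcrtr1, the first orexin receptor, stood at 25.6 CPM in NP (1 of 5 cells) and 14.8 CPM in CT cells (15 of 83). Of 149 thinned Vip cells 1 had an Hcrtr1 read, too few to show whether it occurs with Hcrtr2, which 31 of them had. Sstr5, Npy4r and Npy6r stayed at or under 0.103 CPM in every family.

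For most members the highest family was closely followed by another. A gene was counted when its highest family stood at least 2-fold above the next on the log2 scale of CPM + 1. Of 22187 genes with 1 CPM or more in some family 18.8% were counted, and 3 of the 10 members were, Rxfp3 (log2 ratio 3.66, Sst over Lamp5), Sstr3 (1.05, IT over ET) and Vipr2 (1.01, Vip over Pvalb). The members' median log2 ratio was 0.63, against 0.40 for all genes. Since these contrasts chose the members, nothing is read from the shares. Leaving out the cell with most reads left Rxfp3 alone, at 3.54, with Sstr3 at 0.91 and Vipr2 at 0.22. With families of at least 20 cells, Npy2r was counted as well, at 4.91 for Vip over Lamp5.

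Between the means of the 5 inhibitory and the 5 excitatory families, 7 of 10 members differed at least 2-fold. The share over all 22187 genes was 18.7%, with 8.60% higher in inhibitory and 10% higher in excitatory families. This contrast, too, was in view when the members were chosen. Higher in inhibitory families were Npy2r (82.5 against 0.0449 CPM, log2 ratio 6.32), Rxfp3 (5.78 against 0.0816, 2.65) and Vipr2 (1.59 against 0.126, 1.20). Lower in inhibitory families were Sstr3 (1.01 against 15.1 CPM, log2 ratio -3.00), Vipr1 (5.06 against 41.5, -2.81), Sstr2 (12.1 against 47.7, -1.90) and Sstr4 (16.3 against 52.5, -1.63). Hcrtr2 (-0.96), Sstr1 (-0.46) and Npy1r (0.62) lay within 2-fold, and without the cell with most reads Vipr2 joined them at 0.88. The sums of astrocyte and of oligodendrocyte genes were lower in each inhibitory family than in any excitatory one, and their part in the members' differences was not tested.

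Within the leading family, the highest t-type stood at least 2-fold above the other cells for 5 of the 8 members tested. This was the case for 54.1% of 24738 genes, and the members' median log2 ratio was 1.90 against 1.09 for all genes. Sst Th_1 stood at 82.3 CPM against 21.5 in the other Sst cells for Sstr1, Vip Gpc3 at 645 against 163 for Npy2r, and Sst Chodl at 99.4 against 25.8 for Rxfp3. For Vipr2 it was Vip Gpc3, at 20.7 against 1.73 CPM, and for Sstr3 L5 IT_3, at 175 against 32.5 CPM. Without the cell with most reads the log2 ratios were 1.04 for Rxfp3 (1.91 with it), 1.49 for Vipr2 (2.99) and 0.28 for Sstr3 (2.39), so Sstr3 no longer counted. Sstr4 and Hcrtr2 had no value because no t-type of NP reached 5 cells.

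Other genes of the pathway were read in the same way. Over all 22187 genes 18.8% stood above the next family, and 8.60% were higher and 10% lower in inhibitory families. Of the 5 ligand genes at 1 CPM or more, all 5 stood at least 2-fold above the next family, and 4 were higher and 1 lower in inhibitory families. Of 6 other receptors of the same ligand groups, 3 stood above the next family, 3 were higher and 2 lower in inhibitory families. Rxfp4 was counted through 1 of 24 L6b cells, at 1.32 CPM. Of 32 receptors of other neuropeptides, 13 stood above the next family, 9 were higher and 7 lower in inhibitory families. Among the 13, Trhr and Npsr1 had a read in 1 of 5 NP cells and Avpr1a in 1 of 48 ET cells. Galr1 and Prokr1 each had one in 3 of 152 Vip cells. Of 12 signalling partners (Gi and Go subunits, Kir3 channels and the like), 2 stood above the next family, Gnai3 and Kcnj9, both in the 5 NP cells, and none differed 2-fold between inhibitory and excitatory families, with a median log2 ratio of -0.05.

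The 34 °C cells had no part in choosing the members and show the Sst and IT contrast in other cells. Sst and IT cells differed at least 2-fold in 7 of the 7 members at 1 CPM or more, against 29.6% of 17297 genes. Of these 2 were higher in Sst cells (9.78% of all genes) and 5 were lower (19.8%). Vipr2 and Hcrtr2 stayed under 1 CPM in both families, and Npy2r had no row among the genes of this table. The members' median log2 ratio was -2.21, against -0.06 for all genes. All 7 already differed at least 2-fold between Sst and IT cells at 25 °C, where the members were chosen. Nothing is therefore read from their excess over all genes, and the values show that each kept its direction in other cells. Genes of other cells were also lower in Sst than in IT cells, at 183 CPM in Sst and 760 CPM in IT for microglia, 125 CPM in Sst and 750 CPM in IT for astrocytes, and 379 CPM in Sst and 773 CPM in IT for oligodendrocytes. Their part in the 5 lower members was not tested. Because 1 family of cells is 1 sample, no p-value is given.

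Rxfp3 held 2629 reads in 110 Sst cells at 34 °C, or 19.6 CPM, and none in 43 IT cells. Against a floor of 3 reads summed over IT it was at least 412-fold higher in Sst cells, and 20 of 110 Sst cells had a read. Sstr1 was at 12.7 CPM in Sst and 4.62 CPM in IT cells, a ratio of 2.74 (2.42 to 3.11), with a read in 34.8% of thinned Sst and 18.6% of thinned IT cells. The log2 ratio of Sst over IT was 4.37 at 34 °C and 4.35 at 25 °C for Rxfp3, and 1.28 at 34 °C and 1.32 at 25 °C for Sstr1.

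The other 5 were lower in Sst cells at 34 °C. Sstr2 stood at 7.25 CPM in Sst and 103 CPM in IT cells (log2 ratio -3.66). Npy1r was at 10.6 CPM in Sst and 110 CPM in IT cells (-3.26), and a read was found in 10.1% of thinned Sst and 81.4% of thinned IT cells. Sstr3 stood at 6.94 CPM in Sst and 34.1 CPM in IT (-2.15), and Sstr4 at 2.57 CPM in Sst and 15.6 CPM in IT (-2.21). Vipr1 had 1 read in all Sst cells against 26.9 CPM in IT cells, and the ratio of Sst to IT was 0.000278 with a counting interval up to 0.00155. In the 25 °C cells the log2 ratios were -3.77 for Sstr2, -5.32 for Npy1r, -3.09 for Sstr3, -1.21 for Sstr4 and -3.63 for Vipr1.

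Sst cells were recorded on 7 and IT cells on 4 of the 34 °C days, and 1 IT day held a single cell. Sst and IT days did not overlap for 5 of the 7 members, against 9.42% of genes. Of these members 2 were higher on the Sst days, against 4.50% of genes, and 3 were lower, against 4.92%. Rxfp3 ranged from 6.26 to 36.6 CPM over the 7 Sst days and was 0 on all 4 IT days. Sstr1 was 13.5, 14.8, 8.39, 14.2, 14.7, 8.75 and 8.78 CPM on the Sst days, against 0, 5.78, 2.19 and 5.94 CPM on the IT days. Every Sst day thus lay above every IT day for these 2 genes. Npy1r was 22.1, 7.26, 17.3, 16.98, 5.66, 0 and 0 CPM on the Sst days and 42.4, 190, 61.2 and 94.7 CPM on the IT days. Sstr2 reached at most 28.2 CPM on an Sst day and at least 64.7 CPM on an IT day, and Vipr1 at most 0.0858 CPM on an Sst day and at least 20.6 CPM on an IT day. Sstr3 and Sstr4 overlapped. On the 3 days with cells of both families, which held 32 Sst and 33 IT cells, all 7 members kept their direction. The day with a single IT cell was 1 of these and held 21 Sst cells. The others held 6 Sst with 12 IT cells and 5 Sst with 20 IT cells.

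**Figure D5:**
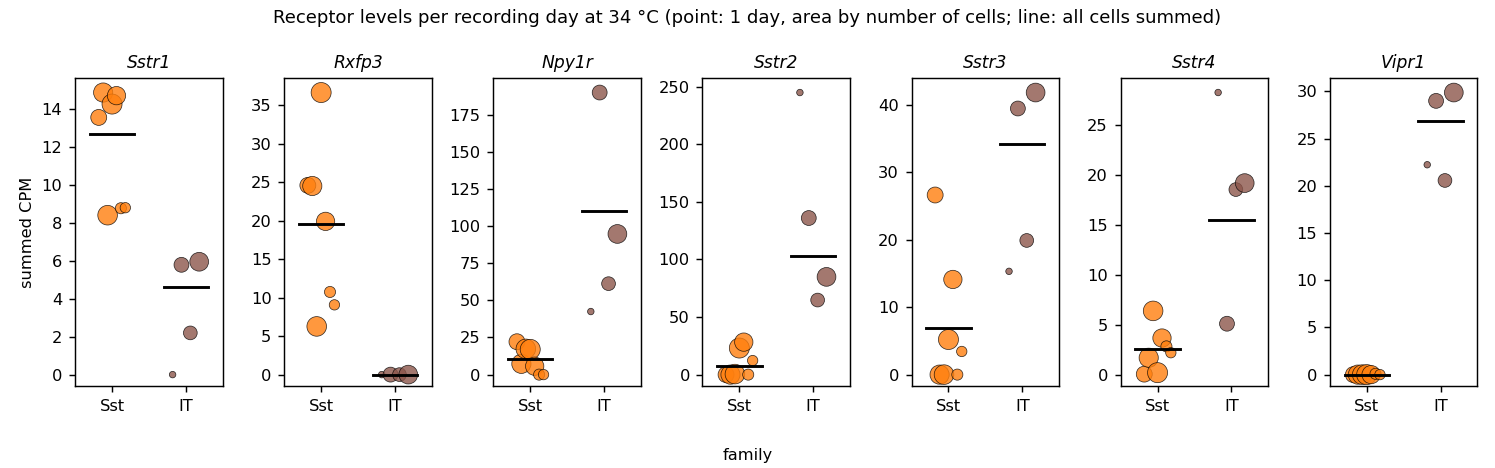
Summed CPM of 7 receptor genes on each recording day at 34 °C, Sst days beside IT days, with point area by the number of cells and a line at the level over all cells. Rxfp3 was above 6 CPM on all 7 Sst days and 0 on all 4 IT days, whereas Npy1r lay above 42 CPM on every IT day.

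At 25 °C both families were recorded together on 28 days, with 82 Sst and 44 IT cells. Rxfp3 was higher in Sst cells on 11 of these days and in IT cells on 1, and Sstr1 was higher in Sst cells on 15 and in IT cells on 7. Npy1r was higher in Sst cells on 0 and in IT cells on 23 days, and Vipr1 was higher in Sst cells on 2 and in IT cells on 17 days. The remaining days had equal values, mostly 0 in both. The 12 ET cells at 34 °C repeated the wide reach of Sstr4, with a read in 10 of 12 cells at 44.5 CPM, and held Hcrtr2 at 16.1 CPM in 5 of 12 cells. No read of Rxfp3 was found in them.

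Sst cells at 34 °C and at 25 °C were compared within 9 t-types that had 5 or more cells in both sets. Temperature, blockers, targeted layer and year of recording changed together between the sets and cannot be told apart. By the mean log2 ratio over the 9 t-types, 4 of the 8 members tested differed at least 2-fold, 1 higher and 3 lower at 34 °C, against 12.5% of 21075 genes (5.95% higher and 6.58% lower). Another scaling moved the median gene by -0.18 on the log2 scale in this comparison. Microglial genes summed to 183 CPM in Sst cells at 34 °C and 675 CPM at 25 °C, and their part in these differences was not tested.

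Rxfp3 was found in the same matched t-types at both temperatures. It had reads at both temperatures in 4 of the 9 t-types and at neither in the other 5, Sst C1ql3_1, Sst C1ql3_2, Sst Crhr2_1, Sst Crhr2_2 and Sst Htr1a, so that no t-type held it in 1 set alone. Sst Pvalb Calb2 stood at 82.02 CPM at 34 °C (9 of 10 cells) and 82.2 CPM at 25 °C (15 of 26 cells). Sst Calb2 was at 16.9 CPM at 34 °C and 34.8 at 25 °C, Sst Myh8_1 at 15.8 CPM at 34 °C and 84.1 at 25 °C, and Sst Hpse at 0.115 CPM (2 reads) at 34 °C and 8.29 CPM at 25 °C. At 34 °C 1 cell held 79.9% of the Sst Calb2 and 92.7% of the Sst Myh8_1 reads, and the levels without it were 3.70 and 1.30 CPM. The mean log2 ratio of -0.71 lay within 2-fold.

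Sstr1 was not higher at 34 °C in any of the 9 t-types (log2 ratio -1.42). Its 2 highest matched t-types were the same in both sets, with Sst Myh8_1 at 39.1 CPM at 34 °C and 61.8 CPM at 25 °C and Sst Crhr2_2 at 28.7 CPM at 34 °C and 39.1 at 25 °C. Sst Calb2 stood at 12.9 CPM at 34 °C and 19.3 CPM at 25 °C, and Sst Htr1a was without a read in both. Others differed more, as Sst C1ql3_1 stood at 1.20 CPM at 34 °C and 20.3 CPM at 25 °C and Sst Crhr2_1 at 0 CPM at 34 °C and 11.4 CPM at 25 °C. Npy1r was higher at 34 °C in 6 of 9 t-types (log2 ratio 1.62). Its level was 32.99 CPM at 34 °C and 1.16 CPM at 25 °C in Sst C1ql3_1, 88.6 CPM at 34 °C and 0 at 25 °C in Sst C1ql3_2, and 33.3 CPM at 34 °C and 0.575 at 25 °C in Sst Crhr2_2, and at most 0.431 CPM at 34 °C in the 3 others. Few cells carried these reads, since without the cell with most the 34 °C levels were 9.87 CPM in Sst C1ql3_1, 46.4 CPM in Sst C1ql3_2 and 0 CPM in Sst Crhr2_2. Sstr2 (-1.24) was higher at 34 °C in 2 of 9 t-types, and its direction turned to 0.69 when all Sst cells were summed without matching. Hcrtr2 (-1.07) was at -0.93 without the cell with most reads.

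In IT cells 2 t-types could be matched, L5 IT_1 with 29 cells at 34 °C and 61 at 25 °C, and L4/5 IT_2 with 10 cells at 34 °C and 32 at 25 °C. Of 6 members tested, 2 were at least 2-fold lower at 34 °C and none higher, against 13.6% and 6.19% of 19778 genes. These were Sstr1 at 3.12 CPM at 34 °C and 7.05 CPM at 25 °C (log2 ratio -1.58) and Sstr3 at 22.1 CPM at 34 °C and 41.5 CPM at 25 °C (-1.36). Both rested on the smaller type, since in L4/5 IT_2 Sstr1 was at 0 CPM at 34 °C and 6.64 CPM at 25 °C and Sstr3 at 5.84 CPM at 34 °C (1 of 10 cells) and 35.3 CPM at 25 °C. In L5 IT_1 they were closer, at 6.25 CPM at 34 °C and 7.46 CPM at 25 °C for Sstr1 and 38.4 CPM at 34 °C and 47.7 CPM at 25 °C for Sstr3. As means of the 2 types, Sstr2 stood at 74.1 CPM at 34 °C and 72.6 CPM at 25 °C, and Npy1r at 105 CPM at 34 °C and 102 CPM at 25 °C. The Npy1r means joined opposite shifts. L4/5 IT_2 was at 97.8 CPM at 34 °C and 131 CPM at 25 °C, and L5 IT_1 at 112 CPM at 34 °C and 73.8 CPM at 25 °C. Vipr1 had means of 32.4 CPM at 34 °C and 61.7 CPM at 25 °C (log2 ratio -0.84). Vipr1 differed between the types, at 22.1 CPM at 34 °C and 87.7 CPM at 25 °C in L5 IT_1 but 42.8 CPM at 34 °C and 35.7 CPM at 25 °C in L4/5 IT_2.

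Year of recording moved with some 25 °C levels. Of the 1228 cells, 737 were recorded in the last calendar year and 491 before it. In ET cells, 5 late and 43 early, Vipr1 was at 2.57 CPM in late and 71.7 CPM in early cells, Npy1r at 1.68 CPM in late and 39.7 CPM in early cells, and Hcrtr2 at 98.3 CPM in late and 19.9 CPM in early cells. Rxfp3 in Sst cells was at 20.7 CPM in late and 48.9 CPM in early cells. Npy1r in IT was at 147 CPM in late and 134 CPM in early cells, and Npy2r in Vip at 253 CPM in late and 180 CPM in early cells. The inhibitory over excitatory log2 ratio of Npy1r, 0.62 over all cells, was -1.71 with early cells alone. Sncg, CT, L6b and NP had fewer than 5 early cells and were left out of that value. It therefore covers another set of families and is not a comparison of years alone. Cells with a Npy1r read in Vip were also deeper, with a median of 1212814 counts against 753680 in those without, and the part of depth in its detection was not tested.

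Over the 53 t-types, the genes most alike in pattern were named from 15123 genes, by Pearson correlation of log2(CPM + 1). The t-types share libraries and were assigned from these genes, so the values are descriptions. Rxfp3 was most like Oxtr, the oxytocin receptor gene (r = 0.750), and Npy2r was most like Vip (0.784) and Htr3a, a serotonin receptor channel gene (0.761). Vipr1 was close to Rnf39 (0.801) and to Slc17a7, the vesicular glutamate transporter (0.778). Npy1r was close to Arpp21 (0.785) and Sorcs3 (0.769), and Sstr1 to Spon1 (0.703). Lower values were found for Sstr4 with Bmt2 (0.625), Sstr2 with Fam131a (0.614), Vipr2 with Aox3 (0.661) and Hcrtr2 with Rapgef3 (0.652). Among the members themselves the closest pair was Sstr3 and Vipr1 (0.636).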

How the data were processed

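Single neurons of mouse primary motor cortex were sequenced by a Smart-seq2 protocol as 75-base single-end reads. The authors aligned reads to mm10 with STAR 2.5.4b (named, with bcl2fastq 2.20, in the submitters' processing notes) through the zUMIs pipeline and deposited whole-number counts of exonic reads per gene (GENCODE M23), not normalized. The kit does not mark strand. Introns were also counted by the authors and were not used here. Rows of 85 ERCC spike-in sequences, 4.28% of the counts of typed cells at 25 °C, were left out, and the 34 °C table had none. Of the 25 °C columns, 101 were not used (92 cells without a type label and 9 without a sample), and 8 of 185 at 34 °C. No cells held identical values. The members and gene lists were chosen with earlier results of these data known.

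For each family or t-type with at least 5 cells, counts were added up and divided by the group's total (CPM). Ratios are log2((CPM + 1)/(CPM + 1)) and were counted past 2-fold among genes at 1 CPM or more in a group compared. There was no test, because each group is 1 sample. Named were all 10 members, the ligands and other receptors of the same ligand groups, and, of other neuropeptide receptors, mainly those counted in 1 family at 20 CPM or more. For per-length levels and positions, merged exon lengths came from GENCODE M21 on GRCm38, and promoters from RefSeq on GRCm38.p6. Thinning used seed 1. Scripts were tested on simulated data (matplotlib 3.10.9 for figures, pandas 2.3.3, scipy 1.17.1 and numpy 2.4.6 under Python 3.11.15). Total counts per cell, at a median of 1267852 at 25 °C and 1203122 at 34 °C, limit each cell's precision. Alternatives were other scalings, cell weights, depths, pseudocounts, filters, periods, days and leaving out the cell with most reads.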

Additional observations from a re-analysis of the deposited data

How the results depend on the processing

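The number of members at least 2-fold higher in 1 family than the next was 3, and it was 1 with the mean of per-cell CPM, 1 with a pseudocount of 5 CPM and 1 without the cell with most reads. It was 2 to 4 under the other alternatives. With a pseudocount of 5 CPM, the count for 34 °C over 25 °C was 1 in Sst t-types (4 with 1 CPM) and 1 in IT t-types (2 with 1 CPM). Summing all IT cells without matching t-types also gave 1. The counts were 6 to 8 between inhibitory and excitatory families (7), 4 to 6 for t-types (5) and 6 to 7 between Sst and IT cells at 34 °C (7). Of the single ratios past 2-fold, 3 changed direction: Vipr2 in inhibitory over excitatory families was -0.046 with cells recorded before the last calendar year of the 25 °C set, Sstr3 in its leading family over the next was -0.031 with cells of that last year, and Sstr2 at 34 °C over 25 °C in Sst cells was 0.69 with all cells summed. A further 13 ratios within 2-fold took the other sign under some alternative, and 3 of their values then passed 2-fold: Npy1r in inhibitory over excitatory families at -1.71 with early cells, and, without the cell with most reads, Hcrtr2 at -1.84 and Sstr4 at -1.19 in the leading family over the next. The Vipr2 and Npy1r values with early cells left out Sncg, CT, L6b and NP, which had fewer than 5 such cells. The cause of these changes was not tested. No paired analysis was possible because each family is 1 sample without replicates, though Sst and IT cells shared 3 recording days at 34 °C and 28 at 25 °C and were compared within them. The planned exonic plus intronic alternatives and the intronic comparison were not run, since introns were not used. Many family values rest on few cells, NP on 5 and Sncg on 13, and a cell without a read at these depths can still express the gene.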

Other observations

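Among 43 receptors of other neuropeptides, 9 stood at 20 CPM or more in 1 family and at least 2-fold above the next. The share of all genes past both limits was not counted. Oxtr, the oxytocin receptor gene, stood at 73.2 CPM in Sst cells and 4.66 CPM in the next family, Vip, with reads in 91 of 272 Sst cells, and it was at 51.2 CPM in Sst cells and 0 CPM in IT cells at 34 °C. Prokr2, a prokineticin receptor gene, was at 38.5 CPM in Sst cells (42 cells with reads) and Crhr2, a receptor gene of the corticotropin-releasing family, at 25.01 CPM in Sst cells against 2.43 CPM in Vip. Grpr, the gastrin-releasing peptide receptor gene, stood at 107 CPM in Vip cells against 9.14 CPM in Sst, with reads in 67 of 152 cells, and Glp1r at 27.9 CPM in Vip against 0.457 CPM in IT, from 16 cells. Nmbr, the neuromedin B receptor gene, was at 28.96 CPM in Lamp5 against 9.18 CPM in Sst. Mc4r, a melanocortin receptor gene, was at 34.3 CPM in ET cells (12 of 48) against 7.81 CPM in CT. Trhr (114 CPM) and Npsr1 (25.2 CPM) led in NP through 1 of 5 cells each.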
